A study of Mus musculus with 2 samples.

Results

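Transforming growth factor β (TGFβ) ligands, receptors and activators were examined cell class by cell class in mouse ovarian tumors grown at a wounded peritoneal wall. The set held 10 of the 32285 genes in the count files, chosen by symbol: the ligands Tgfb1, Tgfb2 and Tgfb3, the receptors Tgfbr1, Tgfbr2 and Tgfbr3, and the genes of activation Ltbp1, Itgav, Itgb8 and Lrrc32. Female C57BL/6 mice, 6 to 8 weeks old, had their peritoneum abraded and were injected intraperitoneally with syngeneic ovarian cancer cells that lack p53 and carry myc and Hras. From the next day the animals received either a neutralizing antibody to Activin A (8 mice per the labels) or control IgG (7 mice), by intraperitoneal injection, for 10 days. The study describes more than one experiment of this kind and another length of treatment, and which of them these libraries belong to was not settled. Tumor tissue from the abraded site was pooled over the mice of a group, so each group is 1 single-cell library, mice cannot be told apart, and an effect of the antibody cannot be told apart from a difference between libraries. Both groups carried the abrasion and the same cancer cell line, and neither untreated peritoneum nor a TGFβ antibody group was analysed here.

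TGFβ is made as a precursor that is cut into the growth factor and a latency-associated peptide, which stay bound to each other and keep the factor silent. Inside the cell this complex is tethered to a carrier: Ltbp1 fixes it to the matrix, and Lrrc32 (also called GARP) holds it on the surface of regulatory T cells. The integrin pair of αv (Itgav) and β8 (Itgb8) binds the latency peptide and frees or exposes the factor. Free TGFβ binds the type II receptor Tgfbr2, which then phosphorylates the type I receptor Tgfbr1. Tgfbr3, or betaglycan, is a coreceptor that presents the ligands and matters most for TGFβ2. In tumors and wounds the pathway is known for driving fibroblasts toward myofibroblasts and for restraining T cells. Activin A belongs to the same superfamily and signals through receptors of its own that feed the same intracellular SMAD proteins.

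The latency peptides carry the site that ties ligands and integrins together, an arginine, glycine and aspartate in a row. The coding stretch around it is shown for the ligands that have it, because Itgav and Itgb8 are among the genes described here. Capitals mark the 9 bases of the 3 codons, read 5′ to 3′ in frame, on the GRCm38 genome (GENCODE M21).
Tgfb1: aaacgtCGGGGCGACctgggcaccatc
Tgfb3: catggcCGTGGAGACctggggcgtctc
The Tgfb1 stretch lies on chr7:25697136-25697162, plus strand, and the Tgfb3 stretch on chr12:86062153-86062179, minus strand, both in coding exon 5 of the longest coding transcript. Of their 27 bases 16 are the same, and 5 of the 9 codons encode the same residue. The coding sequence of Tgfb2, on chromosome 1, held 0 such codon runs in frame. Among 21817 protein-coding genes, 1570 (7.20%) held at least 1 in their longest coding sequence, so the letters alone are not rare.

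The libraries held 98174850 UMIs (control IgG) and 74117462 UMIs (antibody), and 8770 and 6386 cells were kept. The median cell had 5719 and 4660 UMIs. A total of 19 kept barcodes occurred in both libraries (0.217% and 0.298%). Each cell was given a class by gates on marker genes that held none of the 10 genes, and class names stand for those gates. The 16 classes with at least 10 cells in each library were CD8, CD4, regulatory (Foxp3), Trdc and other T cells, NK cells, B cells, macrophages high or low in C1q, dendritic, mature dendritic and plasmacytoid dendritic cells, cancer cells, fibroblasts, myofibroblasts (with contractile genes) and mesothelial cells. T cells made up most of each library, and cancer cells 3.87% (339 cells) and 5.70% (364 cells). C1q macrophages made up 13.8% of kept cells with control IgG (1213 cells) and 5.01% with the antibody (320 cells). The mesothelial gate passed 33 and 27 cells, which also held more fibroblast than mesothelial marker UMIs (12900 against 4060 CPM with control IgG), so that class is read with care. Cells that passed the gates of 2 lineages were kept apart where the leading lineage exceeded its gate by less than 2 times the next (137 and 74). Those with a clearer lead stayed in the class of the leading lineage. Barcodes under 100 UMIs, taken as free RNA, held 6.39% and 6.23% of all UMIs.

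Levels are given in CPM, the UMIs of a gene scaled so that all genes of a class and library sum to 1e+06, with the control IgG library first and 95% Poisson intervals in brackets. They measure counting error only, and a gene's level is compared between classes, never with that of another gene. Orders are among the 16 classes and leave out smaller ones. The 8 and 2 endothelial cells held 405 (275 to 576) and 234 (147 to 354) CPM of Tgfb1. With control IgG 1 cell held 25 of the 31 UMIs. Endothelial cells also held 405 and 319 CPM of Tgfbr2 and 366 and 138 CPM of Tgfbr3. The 9 and 19 neutrophils held 359 and 52.5 CPM of Tgfbr1.

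Tgfb1, the ligand most used by blood cells, was found in every class. It was highest in C1q-low macrophages, at 247 (224 to 271) and 250 (213 to 292) CPM, followed by C1q macrophages at 213 (204 to 222) and 237 (217 to 259) CPM. NK cells came next at 181 and 217 CPM. With the antibody these 3 classes overlapped in their intervals, and with control IgG the C1q-low macrophages lay above the C1q macrophages by 0.21 (0.06 to 0.36) on the log2 scale. T and B cell classes ran from 94.9 to 134 CPM with control IgG and from 117 to 173 CPM with the antibody. NK cells lay above CD8 T cells by 0.81 (0.62 to 0.99) and 0.89 (0.72 to 1.06) on the log2 scale. Fibroblasts were at the low end, with 32.3 (25.6 to 40.1) and 47.4 (39.6 to 56.3) CPM, under cancer cells at 71.1 and 64.4 CPM. C1q macrophages thus held more Tgfb1 than fibroblasts by 2.72 (2.40 to 3.06) and 2.32 (2.04 to 2.61) on the log2 scale. Myofibroblasts, at 89.8 and 81.0 CPM, lay above fibroblasts in both libraries, by 1.48 (1.06 to 1.90) and 0.77 (0.14 to 1.36). Free RNA held 78.4 and 104 CPM of Tgfb1, above the level in fibroblasts, cancer cells and mesothelial cells in both libraries. With the antibody it was also above the level in myofibroblasts and mature dendritic cells.

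Tgfb2 was instead a gene of stroma and cancer cells. Myofibroblasts held 138 (119 to 159) and 117 (84.5 to 159) CPM, fibroblasts 102 (90.2 to 116) and 93.4 (82.2 to 106) CPM, and cancer cells 61.8 (58.4 to 65.4) and 58.4 (55.1 to 61.8) CPM. In each library fibroblasts lay above cancer cells, by 0.73 (0.53 to 0.92) and 0.68 (0.48 to 0.87) on the log2 scale. Myofibroblasts and fibroblasts did not differ beyond their intervals with the antibody, where only 13 myofibroblasts were left. A Tgfb2 UMI was found in 41 of 42 and 11 of 13 myofibroblasts, against 1 of 235 and 0 of 139 B cells, with median depths of 34912 and 28295 UMIs in myofibroblasts and 2837 and 2757 in B cells. Thinned to 2000 UMIs per cell, the myofibroblast share came to 24.0% and 22.5%, and that of B cells to 0.0472% and 0%. T, NK and B cells held at most 4.07 CPM, and free RNA 11.2 and 18.0 CPM. C1q macrophages stood apart between libraries, at 1.63 and 24.9 CPM, which is taken up with the comparison of the groups. A few of them, split off there, held 29.5 (11.9 to 60.8) and 250 (178 to 340) CPM, the latter above myofibroblasts.

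Tgfb3 led in C1q macrophages, at 52.7 (48.2 to 57.4) and 54.5 (45.0 to 65.4) CPM. The next classes were stromal cells and C1q-low macrophages. Fibroblasts held 27.9 (21.7 to 35.2) and 44.8 (37.2 to 53.5) CPM, and myofibroblasts 32.5 and 30.7 CPM. C1q-low macrophages held 27.9 (20.6 to 36.8) and 23.2 (13 to 38.3) CPM. Cancer cells held 22.3 and 19.7 CPM. The lead over fibroblasts was 0.92 (0.56 to 1.30) on the log2 scale with control IgG and 0.28 (-0.10 to 0.66) with the antibody, so the order of these classes is open to counting error in the second library. Within the myeloid cells the fall was steep. C1q macrophages held more Tgfb3 than C1q-low macrophages by 0.92 (0.50 to 1.37) and 1.23 (0.45 to 2.12), and more than dendritic cells by 3.03 (2.14 to 4.10) and 3.57 (2.41 to 5.05) on the log2 scale. Regulatory T cells and plasmacytoid dendritic cells had 0 Tgfb3 UMIs in both libraries. That allows up to 11.1 and 22.5 CPM in regulatory T cells and up to 10.7 and 15.4 CPM in plasmacytoid dendritic cells. B cells had a UMI in 3 of 235 and 1 of 139 cells, and C1q macrophages in 290 of 1213 and 60 of 320, or 8.84% and 9.19% once thinned to 2000 UMIs against 0.744% and 0.260% of B cells. A gene's UMIs can lie in few cells: the 10% of C1q macrophages with the most Tgfb3 UMIs held 67.0% and 75.9% of them.

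**Figure D1:**
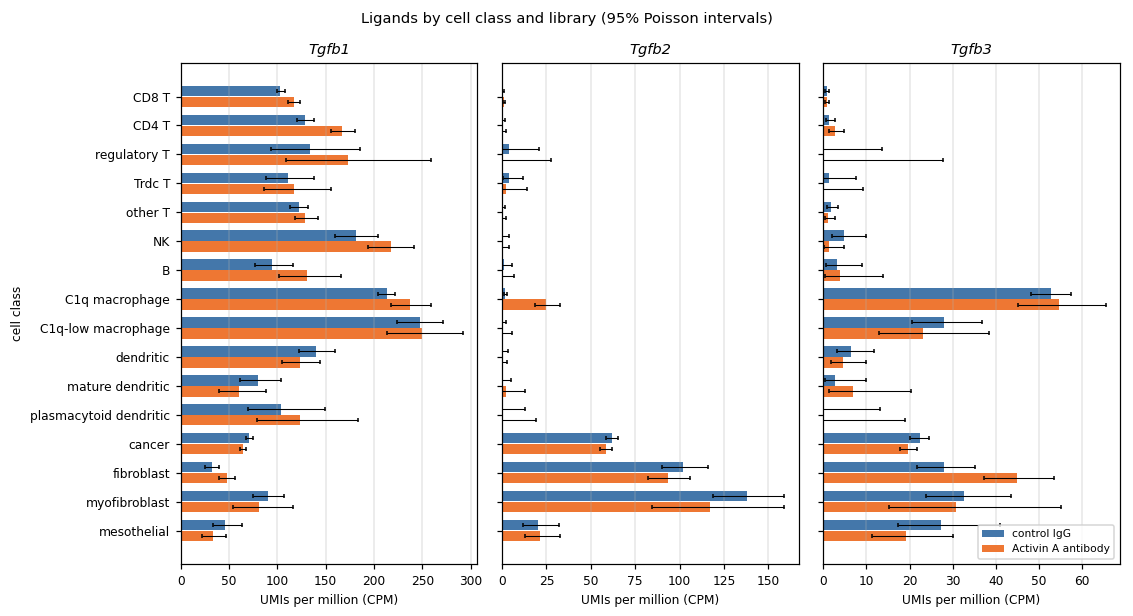
CPM (horizontal axes, linear from 0) of Tgfb1, Tgfb2 and Tgfb3 in 16 cell classes, with bars for the control IgG and Activin A antibody libraries and 95% Poisson intervals. Tgfb1 peaks in the macrophage classes (up to 250 CPM), Tgfb2 in myofibroblasts and fibroblasts (up to 138 CPM) and Tgfb3 in C1q macrophages (up to 54.5 CPM).

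Among the receptors, Tgfbr1 was highest in plasmacytoid dendritic cells, the interferon-producing class, at 211 (161 to 272) and 349 (271 to 442) CPM. Myofibroblasts followed with 116 (98.9 to 135) and 140 (104 to 184) CPM. The gap between these classes was 0.86 (0.41 to 1.30) and 1.32 (0.77 to 1.88) on the log2 scale, and it rests on 44 and 34 plasmacytoid cells. Fibroblasts held 69.7 and 93.0 CPM, and the remaining classes lay between 20.8 and 69.6 CPM over both libraries. CD8 T cells, with 29.0 and 29.9 CPM, were among the lowest. Mature dendritic cells were lowest in both libraries at 22.1 and 20.8 CPM. Free RNA held 18.6 and 29.7 CPM, with the antibody close to the level in CD8 T cells and above that in mature dendritic cells.

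Tgfbr2, the receptor that binds the ligand first, was highest in fibroblasts at 437 (412 to 464) and 358 (336 to 381) CPM. Plasmacytoid dendritic cells held 315 (252 to 388) and 292 (222 to 379) CPM and overlapped with fibroblasts in the antibody library. CD8, CD4, Trdc and other T cells and B cells formed a broad middle, from 191 to 256 CPM with control IgG and from 215 to 278 CPM with the antibody. Regulatory T cells were set apart from CD4 T cells, with 81.7 (51.2 to 124) and 90.1 (46.6 to 157) CPM against 233 and 263 CPM. That is a log2 difference of -1.51 (-2.19 to -0.91) and -1.55 (-2.50 to -0.74), on 22 and 12 UMIs in 40 and 22 regulatory T cells. C1q macrophages held 57.0 and 61.5 CPM, below CD4 T cells by a log2 ratio of 2.03 and 2.10. Dendritic cells held 39.9 and 43.6 CPM, and mature dendritic cells only 13.8 (6.63 to 25.4) and 4.62 (0.560 to 16.7) CPM. Cancer cells were at the bottom with them, at 10.8 (9.35 to 12.3) and 8.07 (6.88 to 9.42) CPM. Fibroblasts held more Tgfbr2 than cancer cells by 5.34 (5.13 to 5.57) and 5.47 (5.23 to 5.72) on the log2 scale. Free RNA had 66.4 and 84.3 CPM, above the level in cancer cells, both macrophage classes and dendritic and mature dendritic cells.

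Tgfbr3 was a fibroblast gene first of all, at 589 (560 to 620) and 580 (552 to 609) CPM. Mesothelial cells followed at 181 (153 to 212) and 278 (245 to 313) CPM, then myofibroblasts at 107 (90.4 to 125) and 145 (108 to 190) CPM. Fibroblasts thus held more than myofibroblasts by 2.47 (2.22 to 2.72) and 2.0 (1.60 to 2.43) on the log2 scale, while Tgfb2, the ligand Tgfbr3 is known to present, was higher in myofibroblasts with control IgG. A second, lower tier was lymphoid. CD4 T cells held 37.8 (33.0 to 43.1) and 37.1 (31.4 to 43.5) CPM and CD8 T cells 20.3 (18.4 to 22.2) and 24.2 (21.7 to 26.9) CPM, while NK cells had 3 and 4 UMIs in all (2.07 and 2.64 CPM). The CD4 T cells exceeded NK cells by 4.19 (2.63 to 6.48) and 3.81 (2.42 to 5.71), and CD8 T cells by 0.90 (0.66 to 1.14) and 0.61 (0.33 to 0.89) on the log2 scale. Regulatory T cells had 0 Tgfbr3 UMIs in 269293 and 133183 UMIs, and dendritic cells 0 in 1553573 and 1308302. That allows up to 11.1 and 22.5 CPM in regulatory T cells and up to 1.93 and 2.29 CPM in dendritic cells. Cancer cells held 38.9 and 35.5 CPM. Free RNA held 21.8 and 31.6 CPM, above CD8 T and NK cells in both libraries and below CD4 T and cancer cells.

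**Figure D2:**
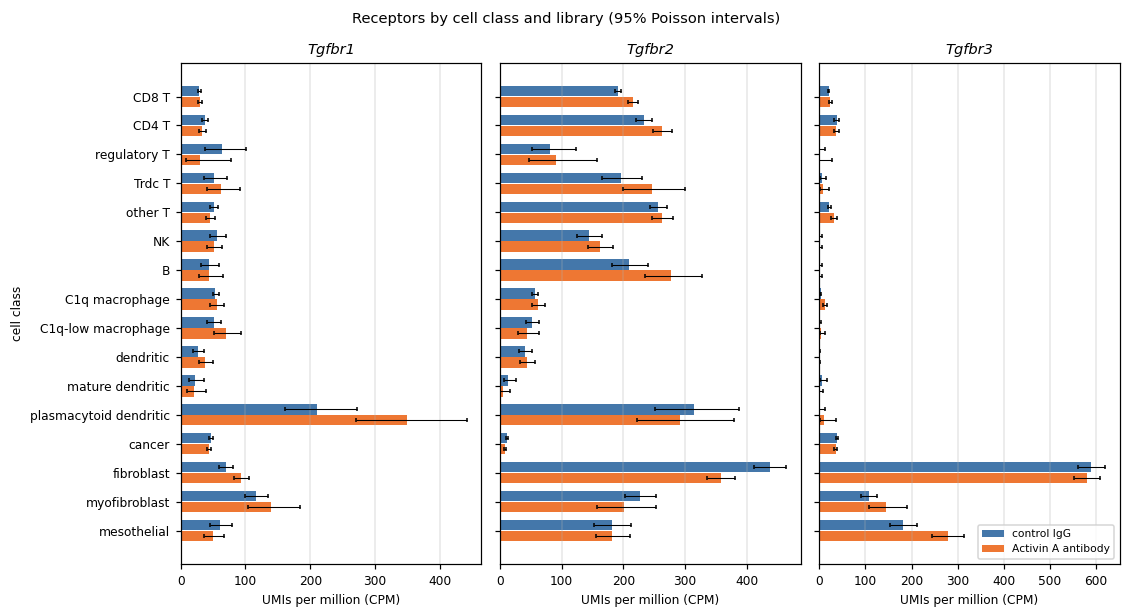
CPM (horizontal axes, linear from 0) of Tgfbr1, Tgfbr2 and Tgfbr3 in 16 cell classes, with bars for the control IgG and Activin A antibody libraries and 95% Poisson intervals. Plasmacytoid dendritic cells lead for Tgfbr1 (211 and 349 CPM) and fibroblasts for Tgfbr2 (437 and 358 CPM) and Tgfbr3 (589 and 580 CPM), while cancer cells hold 10.8 and 8.07 CPM of Tgfbr2.

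Ltbp1, the matrix carrier of latent TGFβ, was highest in fibroblasts, at 160 (145 to 177) and 238 (220 to 257) CPM. Cancer cells held 42.0 (39.2 to 45.0) and 39.2 (36.5 to 42.0) CPM and myofibroblasts 24.0 (16.6 to 33.6) and 16.8 (6.15 to 36.5) CPM. Fibroblasts exceeded cancer cells by 1.93 (1.75 to 2.10) and 2.60 (2.45 to 2.76), and myofibroblasts by 2.74 (2.23 to 3.29) and 3.83 (2.70 to 5.28), on the log2 scale. The mesothelial class, for all its fibroblast marker UMIs, held 1 and 7 Ltbp1 UMIs (1.19 and 7.42 CPM). C1q macrophages held 14.2 and 38.5 CPM as a class. A few of them, split off with the comparison of the groups, held 472 (389 to 568) and 425 (330 to 538) CPM, above fibroblasts. T, NK and B cells held at most 4.98 CPM, B cells had 0 UMIs in both libraries, and free RNA had 10.8 and 23.6 CPM.

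Itgav had UMIs in all 16 classes and was highest in regulatory T cells, at 382 (312 to 464) and 473 (363 to 605) CPM. The next class with control IgG was mesothelial, at 193 (164 to 225) CPM, and with the antibody myofibroblasts at 142 (106 to 187) and mesothelial cells at 139 (116 to 165) CPM. The distance from regulatory T to CD4 T cells, which held 113 and 117 CPM, was 1.76 (1.44 to 2.06) and 2.01 (1.61 to 2.40) on the log2 scale. Most other classes lay between 47.4 and 133 CPM in both libraries. B cells were low at 25.8 and 40 CPM, and plasmacytoid dendritic cells at 14.3 and 51.3 CPM on 4 and 10 UMIs. Mature dendritic cells held 70.5 and 37.0 CPM and were the lowest class with the antibody. Free RNA held 42.5 and 54.2 CPM, above B cells and plasmacytoid dendritic cells in both libraries. With the antibody it was also above mature dendritic cells and dendritic cells, the latter at 47.4 CPM.

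Itgb8, a partner with which αv can activate TGFβ, was far narrower. Mesothelial cells held 225 (194 to 259) and 183 (157 to 213) CPM, with a UMI in 30 of 33 and 27 of 27 cells. Regulatory T cells held 130 (90.5 to 181) and 67.6 (30.9 to 128) CPM, with a UMI in 17 of 40 and 6 of 22 cells. B cells had 0 UMIs in 235 and 139 cells, at median depths of 2837 and 2757 UMIs against 5370 and 4320 in regulatory T cells. Thinned to 2000 UMIs, regulatory T cells with a UMI came to 24.5% and 15.5%, and mesothelial cells to 35.0% and 31.7%. Myofibroblasts followed with 43.1 (33.0 to 55.4) and 50.3 (29.8 to 79.4) CPM and fibroblasts with 27.1 and 29.8 CPM, while cancer cells held 7.38 and 6.28 CPM. CD4 T cells outside the regulatory gate held 6.08 and 5.68 CPM, lower than regulatory T cells by a log2 ratio of 4.42 (3.71 to 5.13) and 3.57 (2.28 to 4.74). Dendritic cells, a class known for Itgb8 in other tissues, had 0 UMIs of 1553573 and 1308302, which allows up to 1.93 and 2.29 CPM. Free RNA held 2.71 and 3.90 CPM.

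Lrrc32 was the rarest gene, with 68 and 59 UMIs over all kept cells. Regulatory T cells held 44.6 (23.0 to 77.8) and 37.5 (12.2 to 87.6) CPM, on 12 UMIs in 10 of 40 cells and 5 UMIs in 2 of 22 cells. The CD4 T cells without Foxp3 had 0 UMIs in 922 and 694 cells. Set against 3 UMIs in those cells of each library, Lrrc32 was at least 88-fold higher in regulatory T cells with control IgG and at least 50.7-fold with the antibody. That takes the 12 and 5 UMIs as they stand, and with their counting error the lower 95% ends were 5.93 and 4.8 on the log2 scale. Fibroblasts held 7.96 (4.86 to 12.3) and 11.4 (7.74 to 16.2) CPM, in 15 of 169 and 26 of 219 cells, and cancer cells 0.260 and 0.0997 CPM. Regulatory T cells lay above fibroblasts by 2.48 (1.32 to 3.59) and 1.72 (0 to 3.1) on the log2 scale. Myofibroblasts held 4.95 and 19.5 CPM on 7 UMIs in each library. Only 8 and 2 cells passed the endothelial gate, so that class was not among the 16. They held 10 and 2 Lrrc32 UMIs, or 131 (62.7 to 241) and 21.3 (2.57 to 76.8) CPM. With control IgG that value lay above the one of regulatory T cells with overlapping intervals, and 1 cell held 7 of the 10 UMIs.

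**Figure D3:**
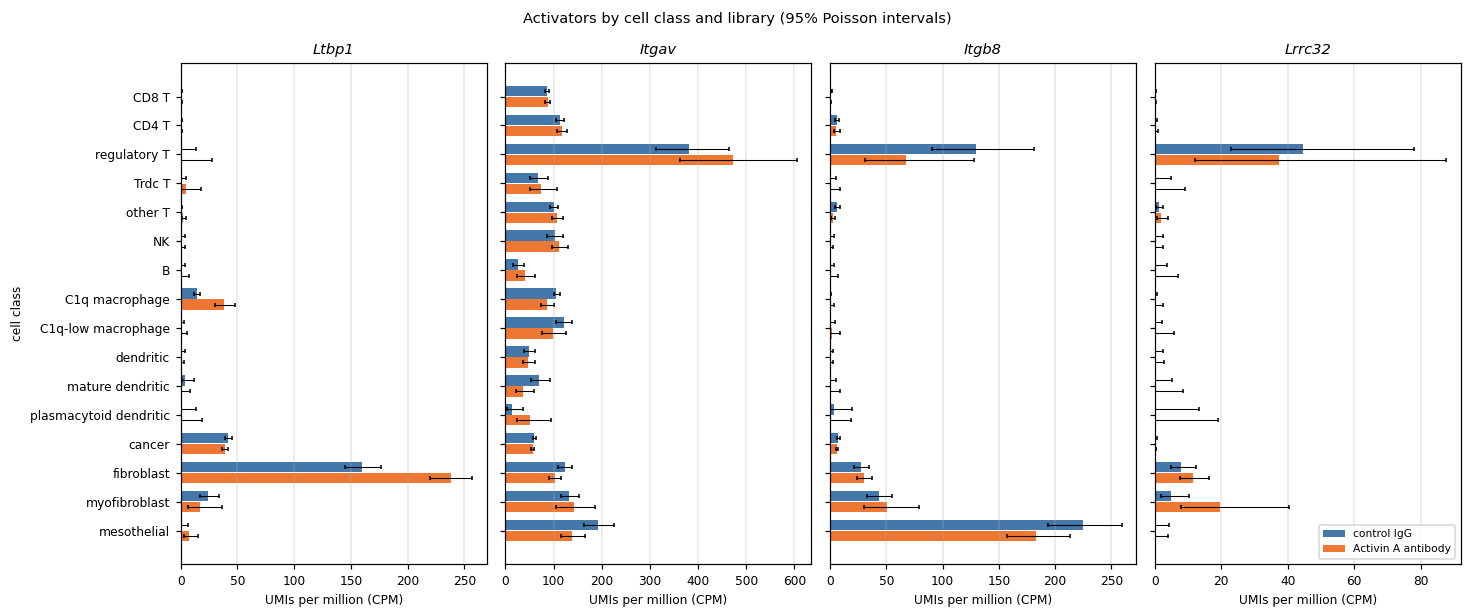
CPM (horizontal axes, linear from 0) of Ltbp1, Itgav, Itgb8 and Lrrc32 in 16 cell classes, with bars for the control IgG and Activin A antibody libraries and 95% Poisson intervals. Ltbp1 stands in fibroblasts (160 and 238 CPM), Itgav and Lrrc32 lead in regulatory T cells, and Itgb8 stands in mesothelial (225 and 183 CPM) and regulatory T cells (130 and 67.6 CPM).

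The integrin chains work as a pair, so the share of Itgb8 cells that also held Itgav was counted. All 30 and 27 mesothelial cells with Itgb8 had an Itgav UMI, as did 15 of 17 and 6 of 6 regulatory T cells. The 3 mesothelial cells without Itgb8, all with control IgG, had Itgav too. Regulatory T cells without an Itgb8 UMI had Itgav in 18 of 23 and 11 of 16 cells, at nearly the same depth (medians of 5202 and 4104 UMIs against 5537 and 4529). In CD4 T cells the share with Itgav was 40% (8 of 20) with Itgb8 and 40.8% without in the control IgG library, and 69.2% (9 of 13) and 39.4% in the antibody library. CD4 T cells with Itgb8 were also deeper, with medians of 6344 and 7342 UMIs against 5154 and 4565. In fibroblasts the share with Itgav was 79.4% and 86.2% among cells with Itgb8 and 62.2% and 50.0% among cells without, but cells with Itgb8 were also deeper (medians of 21940 and 22123 against 10513 and 7992 UMIs). Itgb8 and Lrrc32, the surface activators of regulatory T cells, were found together in 6 of 17 and 1 of 6 of the regulatory T cells with Itgb8. Among those without Itgb8, 4 of 23 and 1 of 16 had Lrrc32.

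For each of the 10 genes, the genes with the most similar levels over the 16 classes in both libraries (32 points, log2 of CPM plus 1) were sought among 13363 genes with at least 200 UMIs. The points share libraries and classes, and these values are descriptions. Tgfb2 was most like Pdgfrb (r = 0.95), a receptor of stromal cells, and Ltbp1 was most like F3 (r = 0.917), which encodes tissue factor, and Prrx1 (r = 0.893), a mesenchymal transcription factor. Tgfb1 was most like Fermt3 (r = 0.845), an integrin-binding adaptor of blood cells. Tgfbr3 was most like Il17rd (r = 0.911), Tgfb3 like Map3k20 (r = 0.933) and Itgb8 like Nid2 (r = 0.889), a basement membrane protein. Tgfbr2 was most like Cmah (r = 0.838), Tgfbr1 like Rab33b (r = 0.832), Itgav like Igtp (r = 0.807) and Lrrc32 like Ptpn5 (r = 0.795).

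The antibody and control IgG libraries were then compared within each class, which asks whether neutralizing Activin A went with another TGFβ supply or response. Ratios are log2 of CPM with the antibody over CPM with control IgG, for the 13 classes with at least 30 cells in each library and genes with at least 30 UMIs over both. A difference was counted where it was at least 1.5-fold and its 95% interval left out 0. With 1 library per group there is no replicate check and no test of the antibody. Of 130 pairs of gene and class 70 had enough UMIs, of which 5 were higher with the antibody and 2 were lower. Among all 111237 pairs of gene and class, 3.99% were higher and 3.63% lower, 7.62% in either direction, so the 7 of 70 pairs are near the share of all genes. The other 63 pairs did not pass.

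The largest difference was in Tgfb2 in C1q macrophages, with 16 UMIs in 12 of 1213 cells with control IgG and 53 UMIs in 13 of 320 cells with the antibody. These are 1.63 (0.93 to 2.64) and 24.9 (18.7 to 32.6) CPM. The intervals do not overlap, but they take UMIs of a cell as independent. With the antibody 1 cell held 10 of the 53 UMIs. The shares of cells with a UMI were 0.989% (0.512 to 1.72) and 4.06% (2.18 to 6.85). The log2 ratio was 3.94 (3.11 to 4.84), and alternative processing gave 2.80 to 4.18, with 6 of 9 values within that interval. Tgfbr3 was higher in the same cells, with 35 UMIs (3.56 CPM) against 25 UMIs (11.7 CPM), a log2 ratio of 1.72 (0.92 to 2.50). The antibody value rests on 8 cells, 1 of which held 12 of its UMIs, and with every cell weighted equally the ratio was 0.47. Ltbp1 was higher too, with 140 UMIs in 27 cells (14.2 CPM) against 82 UMIs in 22 cells (38.5 CPM), a ratio of 1.44 (1.02 to 1.84). In this class 3 of 8 tested genes were thus higher and 0 lower, against 6.94% of all genes higher and 9.59% in either direction. All 3 sat at a low level in few cells, and the genes spread over many macrophages differed little: Tgfb1 by 0.15 (0.01 to 0.30), Tgfb3 by 0.05 (-0.25 to 0.34), Tgfbr1 by 0.05 (-0.25 to 0.34), Tgfbr2 by 0.11 (-0.17 to 0.39) and Itgav by -0.29 (-0.53 to -0.07). Marker UMIs of other cells in this class also differed between libraries: fibroblast markers summed to 39.7 CPM (8 of 8 with a UMI) and 160 CPM (7 of 8), cancer markers to 40.1 and 149 CPM (8 of 8 in both), and mesothelial markers to 1.63 (5 of 8) and 7.05 CPM (4 of 8). Erythroid markers summed to 0.712 (3 of 4) and 343 CPM (4 of 4), with 7 and 730 haemoglobin UMIs. With 1 haemoglobin-rich cell of the antibody library left out, the free RNA share estimated from haemoglobin was 2.47% and 3.14%. The erythroid sum with the antibody thus does not stand for the class as a whole. Macrophage markers summed to 17400 and 12800 CPM (9 of 9 in both). The part of all these markers in the ratios was not tested.

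Where these UMIs lay within the class was looked at with Gata6, Prg4 and Alox15, genes known from large resident macrophages of the peritoneal cavity. The split was chosen after the values were seen. Macrophages with UMIs of at least 2 of the 3 genes numbered 17 of 1213 in the control IgG library (1.40%), against 18 of 320 in the antibody library (5.62%). The 17 cells held 112 of the 140 Ltbp1 UMIs of the class, and the 18 cells 68 of 82. Ltbp1 stood at 472 (389 to 568) and 425 (330 to 538) CPM in them, with overlapping intervals, against 2.92 (1.94 to 4.22) and 7.11 (3.89 to 11.9) CPM in the other C1q macrophages. The share of these cells in the class was the larger with the antibody. Their number was nearly the same, 17 and 18, while the other C1q macrophages numbered 1196 and 302. The part of this share in the Ltbp1 ratio was not tested. The Tgfb2 intervals, unlike those of Ltbp1, did not overlap in these cells. Tgfb2 had 7 UMIs (29.5 CPM, 11.9 to 60.8) in the 17 cells and 40 UMIs (250 CPM, 178 to 340) in the 18 cells. Tgfbr3 was at 42.1 (20.2 to 77.5) and 43.7 (17.6 to 90.1) CPM. The genes of the split differed between the 17 and the 18 cells as well. Prg4 stood at 982 (860 to 1120) and 2390 (2150 to 2640) CPM, and Alox15 at 472 (389 to 568) and 1630 (1440 to 1840) CPM. Gata6, at 71.6 (41.7 to 115) and 150 (96 to 223) CPM, had overlapping intervals. Their median depth was 14999 and 8179 UMIs. The part of these differences in the Tgfb2 values was not tested. With these cells left out of the class, the ratios were 1.29 for Ltbp1, 1.81 for Tgfbr3 and 2.82 for Tgfb2, the last on 9 and 13 UMIs, fewer than the 30 asked for elsewhere. The 13 Tgfb2 UMIs lay in 3 cells. Tgfbr3 rested on 25 UMIs in 17 cells and 18 UMIs in 3 cells, and Ltbp1 on 28 UMIs in 15 cells and 14 UMIs in 8 cells. Tgfb3 ran the other way, with 1 and 0 UMIs in the 17 and 18 cells of the split against 53.9 (49.3 to 58.7) and 58.9 (48.7 to 70.7) CPM in the other C1q macrophages. Col1a1, a fibroblast collagen, had 3 and 2 UMIs in these cells (12.6 and 12.5 CPM). Dlk1, the leading gene of cancer cells, had 1 and 3 UMIs in them (4.21 and 18.7 CPM), with overlapping intervals. In the other C1q macrophages Col1a1 stood at 6.98 and 16.3 CPM and Dlk1 at 9.07 and 17.3 CPM. For both genes the intervals of the libraries did not overlap there. The part of such UMIs in the ratios of the other C1q macrophages was not tested. Ltbp1 and Tgfb2 also shared cells: 4 of 27 and 9 of 22 macrophages with Ltbp1 had Tgfb2, against 8 of 1186 and 4 of 298 without. Median depths were 10486 and 7141 UMIs with Ltbp1 and 7605 and 5813 without.

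**Figure D4:**
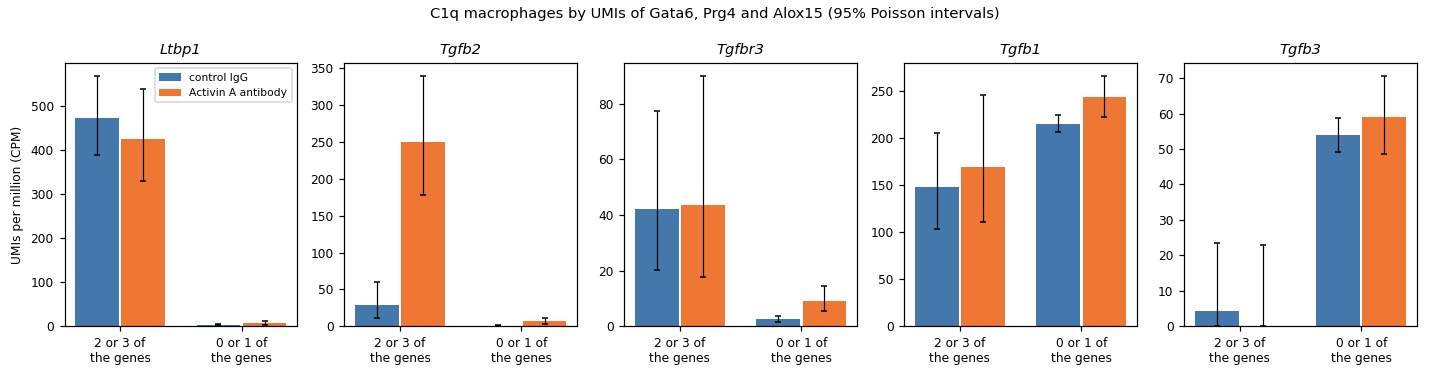
CPM (vertical axes, linear from 0) of 5 genes in C1q macrophages with UMIs of 2 or 3, or of 0 or 1, of Gata6, Prg4 and Alox15, with bars for each library and 95% Poisson intervals. Ltbp1 lies at 472 and 425 CPM in the first group and at 2.92 and 7.11 CPM in the second, while Tgfb3 is at 53.9 and 58.9 CPM in the second.

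In fibroblasts Tgfb3 had 70 UMIs (27.9 CPM, 21.7 to 35.2) with control IgG and 122 UMIs (44.8 CPM, 37.2 to 53.5) with the antibody. The intervals did not overlap, and the log2 ratio was 0.69 (0.25 to 1.13). All 10 genes could be compared in this class, and 1 was counted as higher and 0 as lower, against 9.64% of all genes in either direction. Just under the fold were Ltbp1, from 402 UMIs (160 CPM) to 648 UMIs (238 CPM) with a ratio of 0.57 (0.39 to 0.76), and Tgfb1 with 0.56 (0.14 to 0.98). Tgfbr2 was lower by less than the fold, at -0.29 (-0.42 to -0.16), and Tgfbr3 was at -0.02 (-0.13 to 0.08). With myofibroblasts joined to the fibroblasts, a change made after the values were seen, Ltbp1 came to 0.94, Tgfbr3 to 0.35 and Tgfb1 to -0.05. Tgfb3 came to 0.55 there and to 0.33 in classes from Leiden clusters, both under the fold. The libraries held 42 and 13 myofibroblasts, a class with less Ltbp1 and Tgfbr3 and more Tgfb1 than fibroblasts. Macrophage markers in the fibroblast class summed to 797 and 376 CPM (9 of 9 in both) and cancer markers to 356 and 507 CPM (8 of 8 in both), and their part was not tested.

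Among plasmacytoid dendritic cells Tgfbr1 had 59 UMIs in 25 of 44 cells (211 CPM) with control IgG and 68 UMIs in 24 of 34 cells (349 CPM) with the antibody. The intervals, 161 to 272 and 271 to 442, touch at their ends. The ratio was 0.73 (0.20 to 1.25), 1 higher and 0 lower of 3 tested genes, against 9.97% of all genes. In other T cells Itgb8 was lower with the antibody, from 36 UMIs in 17 of 1051 cells (6.45 CPM) to 8 UMIs in 5 of 814 cells (2.21 CPM), a ratio of -1.54 (-2.86 to -0.41). That was 1 of 6 tested genes there, against 5.16% of all genes. Macrophage markers in other T cells summed to 104 (9 of 9) and 37.3 CPM (8 of 9), plasma cell markers to 168 (4 of 4) and 47 CPM (3 of 4) and skeletal muscle markers to 88.9 and 30.1 CPM (4 of 4 in both), and their part was not tested. Itgb8 was at 0.305 and 0.940 CPM in C1q macrophages and at 130 and 67.6 CPM in regulatory T cells. Ikzf2, a regulatory T cell marker, was the leading gene of other T cells over both libraries (6.71-fold over all other cells, 715 CPM). The other listed regulatory T cell markers, Foxp3, Il2ra and Ctla4, were not among the 10 leading genes of that class. The gates had placed T cells with a Foxp3 UMI and no Cd8 UMI in the regulatory class. The part of regulatory T cells was not tested either. In mature dendritic cells Itgav went from 51 UMIs (70.5 CPM) to 16 UMIs (37.0 CPM), with overlapping level intervals of 52.5 to 92.7 and 21.1 to 60.0 and a ratio of -0.93 (-1.84 to -0.10), 1 of 2 tested genes against 9.45% of all genes. With the antibody that level lay below the 54.2 CPM of Itgav in free RNA. Fibroblast markers in mature dendritic cells summed to 238 CPM with control IgG and 23.1 CPM with the antibody.

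In cancer cells 0 of 9 tested genes were counted in either direction, against 8.33% of all genes. Every ratio there was below 0 by a little, from -0.42 (-0.72 to -0.11) for Tgfbr2 to -0.08 (-0.20 to 0.04) for Tgfb2, beside a median of -0.06 over all genes of the class. The CD8 and CD4 T cells likewise had 0 of 5 and 0 of 6 tested genes counted (6.19% and 6.37% of all genes). Tgfb1 in CD4 T cells was the nearest, from 762 UMIs (129 CPM) to 677 UMIs (167 CPM), a ratio of 0.38 (0.23 to 0.53), with intervals of 120 to 138 and 155 to 180 CPM that did not overlap. Tgfbr2 was at 0.17 in both (0.10 to 0.24 and 0.06 to 0.29). NK cells, B cells and Trdc T cells had 0 of 4 counted in each (5.28%, 8.45% and 7.37% of all genes), dendritic cells 0 of 4 (7.53%) and C1q-low macrophages 0 of 5 (8.32%). Itgav in B cells, at 25.8 and 40 CPM on 25 and 21 UMIs, had a ratio of 0.63 (-0.28 to 1.53), past the fold but with an interval that held 0.

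**Figure D5:**
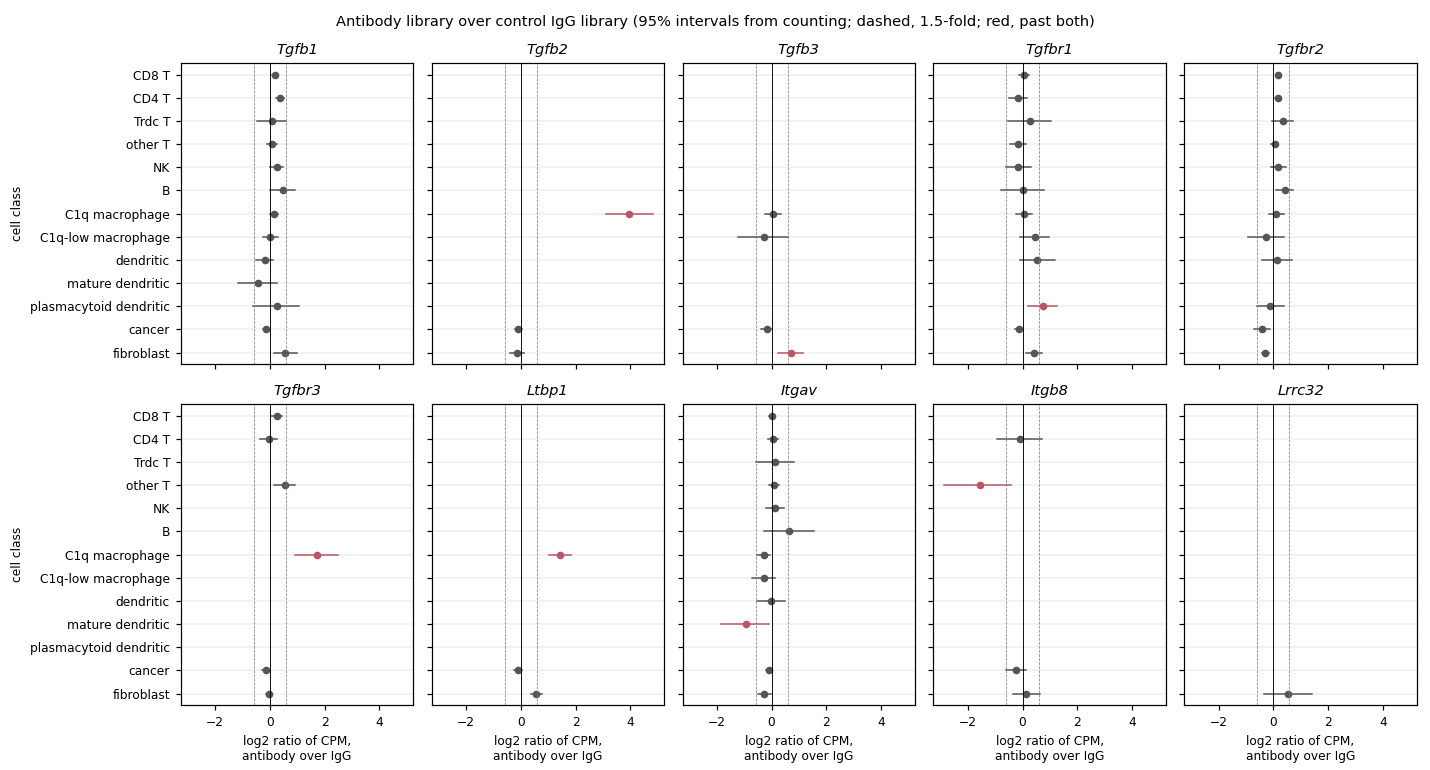
Log2 ratios of CPM, antibody over control IgG (horizontal axes), of the 10 genes in the classes with enough UMIs, as points with 95% counting intervals and dashed lines at 1.5-fold. The 7 red points passed, 5 above 0 and 2 below, and Tgfb2 in C1q macrophages (3.94) lies farthest out.

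Over all kept cells, 1 of the 10 genes was higher and 0 lower, against 6.12% of all genes higher and 11.8% in either direction. Ltbp1 went from 18.3 (17.4 to 19.3) to 28.2 (26.9 to 29.6) CPM, a ratio of 0.62 (0.52 to 0.73). The libraries differ in their mix of classes, and with the mix of the control IgG library held in both the ratio was 0.38. Tgfb2 was at 0.33 over all cells and 0.09 with the mix held, Tgfbr3 at 0.40 and 0.10, and Tgfb3 at -0.27 and -0.04. Tgfb1 turned from -0.11 to 0.11.

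A further 39 genes of the pathway were counted by list. The groups were other carriers of latent TGFβ, other activators and αv partners, other receptors and decoys, intracellular signal carriers and inhibitors, and genes known to respond to TGFβ. In C1q macrophages 5 of 31 tested genes were higher and 3 lower, against 9.59% of all genes in either direction, with a median ratio of 0.09 beside 0.04 over all genes. Cdkn1a, a cell cycle inhibitor, had a ratio of 0.80 (0.71 to 0.90) and Id1, a target of SMAD signals, 0.75 (0.41 to 1.08). Ccn1, a matricellular protein, was at 3.15 (2.08 to 4.29) on 12 and 23 UMIs. On the lower side were Timp1, an inhibitor of matrix proteases, at -0.95 (-1.06 to -0.84), Pmepa1, a feedback inhibitor of TGFβ signals, at -0.91 (-1.21 to -0.62) and Acvrl1, a type I receptor, at -0.74 (-1.03 to -0.46). Genes known to respond were thus found on both sides, 3 higher and 2 lower of 8.

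Fibroblasts had 4 of 35 higher and 2 lower, against 9.64% of all genes in either direction, with a median of 0.18 beside 0.01. The carriers differed in direction: Ltbp4 was at 0.75 (0.59 to 0.91), from 193 to 323 CPM, and Ltbp2 at -1.04 (-1.45 to -0.65), from 62.1 to 30.1 CPM. Ccn1 was at 0.73 (0.55 to 0.90). Cancer cells had 1 of 36 higher, Thbs1 (thrombospondin 1, an activator of latent TGFβ) at 1.27 (1.05 to 1.49), and 2 lower, Smad6 at -1.33 (-1.82 to -0.86) and Nrros at -1.41 (-2.56 to -0.36) on 28 and 11 UMIs, against 8.33% of all genes. In dendritic cells, with 2 of 25 higher and 2 lower against 7.53% of all genes, Thbs1 went from 70 to 3 UMIs, a ratio of -4.30 (-6.61 to -2.69). Itgae, the αE chain known to be induced by TGFβ, was at 1.07 (0.47 to 1.68) there.

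CD8 T cells had 4 of 32 higher and 3 lower, against 6.19% of all genes, with a median of 0.01 beside 0.03. Itgae was at 0.77 (0.59 to 0.94), from 22.9 to 38.9 CPM, Tgif1, a transcriptional corepressor of the pathway, at 0.76 (0.63 to 0.90) and Cdkn1a at 0.69 (0.53 to 0.86). Acvrl1 was at -1.42 (-3.00 to -0.09), Timp1 at -1.09 (-1.40 to -0.78) and Mmp14 at -1.06 (-1.79 to -0.38). Macrophage markers in CD8 T cells summed to 84.4 and 30.4 CPM (9 of 9 in both) and fibroblast markers to 77.7 and 29.6 CPM (8 of 8 in both). Cancer markers were not lower with the antibody, at 54.1 and 58.1 CPM (8 of 8 in both). The part of these markers in the ratios was not tested. CD4 T cells had 4 of 23 higher and 0 lower, against 6.37% of all genes, with a median of 0.37 beside 0.02 over all genes. Cdkn1a was at 1.04 (0.82 to 1.26), Tgif1 at 1.01 (0.78 to 1.24) and Furin, the protease that cuts the TGFβ precursor, at 0.76 (0.64 to 0.88). NK cells had 4 of 17 higher and 0 lower, against 5.28% of all genes, with a median of 0.14 beside 0.03. Among them were Tgfbi at 1.20 (0.09 to 2.43), Ski at 0.90 (0.49 to 1.32) and Tgif1 at 0.61 (0.16 to 1.07).

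In the remaining classes the counts were small. Of all genes, 5.16% were counted in other T cells, 8.32% in C1q-low macrophages, 8.45% in B cells, 9.45% in mature dendritic cells, 7.37% in Trdc T cells and 9.97% in plasmacytoid dendritic cells. Other T cells had 2 of 22 higher, Tgif1 at 0.65 and Pmepa1 at 0.63, and 2 lower, Timp1 at -2.40 and Tgfbi at -0.72. C1q-low macrophages had 3 of 25 higher, Tgif1 at 0.86, Cdkn1a at 0.82 and Mmp14 at 0.66, and 2 lower, among them Acvrl1 at -0.77. B cells had 2 of 14 higher, Smad3 at 0.73 and Tgif1 at 0.60, and 1 lower, Tgfbi at -3.02. Mature dendritic cells had 1 of 16 higher, Furin at 1.55, and 3 lower, Pmepa1 at -2.80, Acvrl1 at -2.43 and Smad4 at -0.59. Trdc T cells had 1 of 14 higher, Furin at 1.44, and plasmacytoid dendritic cells 1 of 9 lower, Skil at -0.87. Tgif1, singled out after its values were seen, was counted as higher in 6 classes and lower in 0. The share of all genes counted as higher in as many classes was not worked out, so nothing is read from this count.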

How the data were processed

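Single-cell RNA of 2 pooled tumor digests (10x 3′ libraries, no sorting for cell type) was analysed. The authors deposited raw UMI counts per gene and barcode, with all barcodes and no normalization. The labels name Cell Ranger 7.0.1 and the mm10 build, while the file header names Cell Ranger 4. Barcodes were kept as cells if they held between 1000 and 8500 genes, between 1000 and 100000 UMIs, and no more than 10% mitochondrial UMIs. Classes were set by marker gates whose rule was chosen after the data were seen. Cells passing gates of 2 lineages were kept apart unless 1 lineage led by at least 2 times, and no doublet caller was run. UMIs were summed per class and library and given as CPM. Exact Poisson intervals, binomial intervals for shares and ratios, and limits at 0 (3 counts) are at 95% and cover counting error only. They are too narrow where UMIs lie in few cells. Thinned shares are those expected at 2000 UMIs per cell. The members and gene lists were chosen with earlier results of these data known. Named genes were the 10 members and listed pathway genes past the fold, and values of some listed genes are not reported here. No per-sample test was possible with 1 library per group. Ratios were tested on simulated data with independent counts, which do not cover UMIs that lie in few cells. Alternatives were other cell filters, stricter gates, Leiden clusters, joined cells of 2 lineages, equal weight per cell, another UMI minimum, free RNA subtracted, ratios centred on the median gene, all barcodes and a fixed class mix. Coding sequences came from GENCODE M21 on GRCm38, the build of mm10. Python 3.11.15, numpy 2.4.6, pandas 2.3.3, scipy 1.17.1, scanpy 1.11.5, leidenalg 0.10.2 and matplotlib 3.10.9 were used.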

Additional observations from a re-analysis of the deposited data

How the results depend on the processing

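No paired analysis was possible because the mice of a group were pooled into 1 library, and for the same reason no replicate could be left out. The 7 pairs of gene and class that passed kept their sign in every alternative that gave a value, and 546 of 567 alternative ratios lay within the interval first given. These pairs were picked by their ratios, and the alternatives recount UMIs of the same libraries, so this is no replicate check. For 1 of the 7, Tgfb2 in C1q macrophages, 6 of 9 alternatives lay within its interval, and the lowest was 2.80. Of these 7, Tgfbr3 in C1q macrophages came under the fold with cells weighted equally (0.47), and Tgfb3 in fibroblasts with Leiden clusters (0.33) or myofibroblasts joined (0.55). With Leiden clusters 1 pair was lower, and with at least 100 UMIs asked for 3 were higher and 0 lower, since fewer pairs were tested. Over both libraries, Leiden clusters gave 0.07 for Tgfbr2 in fibroblasts over plasmacytoid dendritic cells and 1.58 for Ltbp1 in fibroblasts over cancer cells. Stricter gates gave 0.35 for Tgfb1 in C1q-low over C1q macrophages and 2.16 for Ltbp1. Equal weight per cell gave 1.87 for Tgfbr3 in fibroblasts over mesothelial cells, 2.84 for Ltbp1 and 1.67 for Itgav in regulatory T over mesothelial cells. The cause of these moves was not tested. Over all kept cells with the class mix of control IgG held, ratios were 0.11 for Tgfb1, 0.09 for Tgfb2 and Tgfbr2, -0.04 for Tgfb3, 0.10 for Tgfbr3, 0.38 for Ltbp1, -0.06 for Itgav and -0.15 for Itgb8. Over all barcodes they were -0.04 for Tgfbr2 and 0.75 for Ltbp1. Thinning moved 18 of 20 shares of cells with a UMI. Drawing fewer UMIs lowers such shares by construction, so this count is no result about the genes. The macrophage split and the joining of myofibroblasts were chosen after seeing the data.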
